A study of Homo sapiens with 6 samples.

Results

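The TGF-beta, activin and BMP pathway was examined through 49 genes listed by symbol, which were 13 ligands, 4 latent binding proteins, 7 antagonists, 9 receptors, 6 signalling SMADs, 6 intracellular inhibitors and 4 ID genes. All 49 were found among the 60708 gene identifiers, and 46 had enough counts to be tested. The cells were U2OS, an established human osteosarcoma line, wild type in the study's design text. One group of 3 libraries came from cells given the solvent DMSO and the other from cells given 25 µM PDD00017273, an inhibitor of the poly(ADP-ribose) chain-degrading enzyme PARG, each for 4 days (PARGi below). The design text calls the triplicates biological without saying what was kept separate, so the p-values measure the spread between these libraries, which may be partly technical. The series title concerns control of the TARG1 protein, and the pathway described here was not its subject.

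Ligands of this family are secreted dimers that bring together pairs of receptor kinases at the cell surface. Receptors for TGF-beta and activin phosphorylate SMAD2 and SMAD3, whereas BMP receptors phosphorylate SMAD1, SMAD5 and SMAD9, and both sets move to the nucleus with SMAD4. Antagonists capture ligands outside the cell, latent binding proteins hold TGF-beta in an inactive store in the matrix, and SMAD6, SMAD7 and the SMURF ligases dampen the signal inside. In bone-forming cells, BMPs promote and TGF-beta and activin modulate differentiation.

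Of the 46 tested members, 22 passed an adjusted p of 0.05 in edgeR's quasi-likelihood test, 11 higher and 11 lower in PARGi, beside 24.3% of all 20409 tested genes. The members are mostly well expressed: 18 of the 38 with a mean of at least 10 CPM (counts scaled to library size) passed, beside 35.7% of all genes at that level. The median log2 fold change was -0.021 over the members and -0.0070 over all tested genes, and the changes were small, with only INHBA past 1.5-fold. In 20 of the 22, all 3 libraries of one group lay above all 3 of the other. The same held for 24 of the 46 tested members and for 38% of all tested genes. Passing the threshold favours such separation, so it is no separate support for the calls. Counted by role, 16 of 21 tested ligands, latent binding proteins and antagonists passed, 8 in each direction, and 2 of 15 receptors and signalling SMADs passed, both lower. With a mean of at least 10 CPM, these counts were 14 of 17 and 1 of 13. In pathway genes outside the member list, 1 of 9 tested ligands, 4 of 9 antagonists and 4 of 6 receptors and co-receptors passed. The low share among receptors was thus not repeated there. Many of those ligands and antagonists had low counts, such as INHA at 0.155 CPM and BMPER at 0.682 CPM in DMSO. Their shares are therefore not comparable with those of the members. Counted by branch, 9 of 19 members best known for TGF-beta and activin passed (5 higher, 4 lower), 10 of 20 of the BMP branch (4 higher, 6 lower) and 3 of 7 shared members (2 higher, 1 lower). The BMP count moved with the setting: it was 4 with DESeq2, 6 without DMSO replicate 3, 5 without PARGi replicate 2 and 6 without PARGi replicate 3. The share of all genes called in each of those runs is not given here. The differences between roles and between branches were not tested. The members too were chosen with earlier results of these data known, so their share is not that of an independent set.

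**Figure D1:**
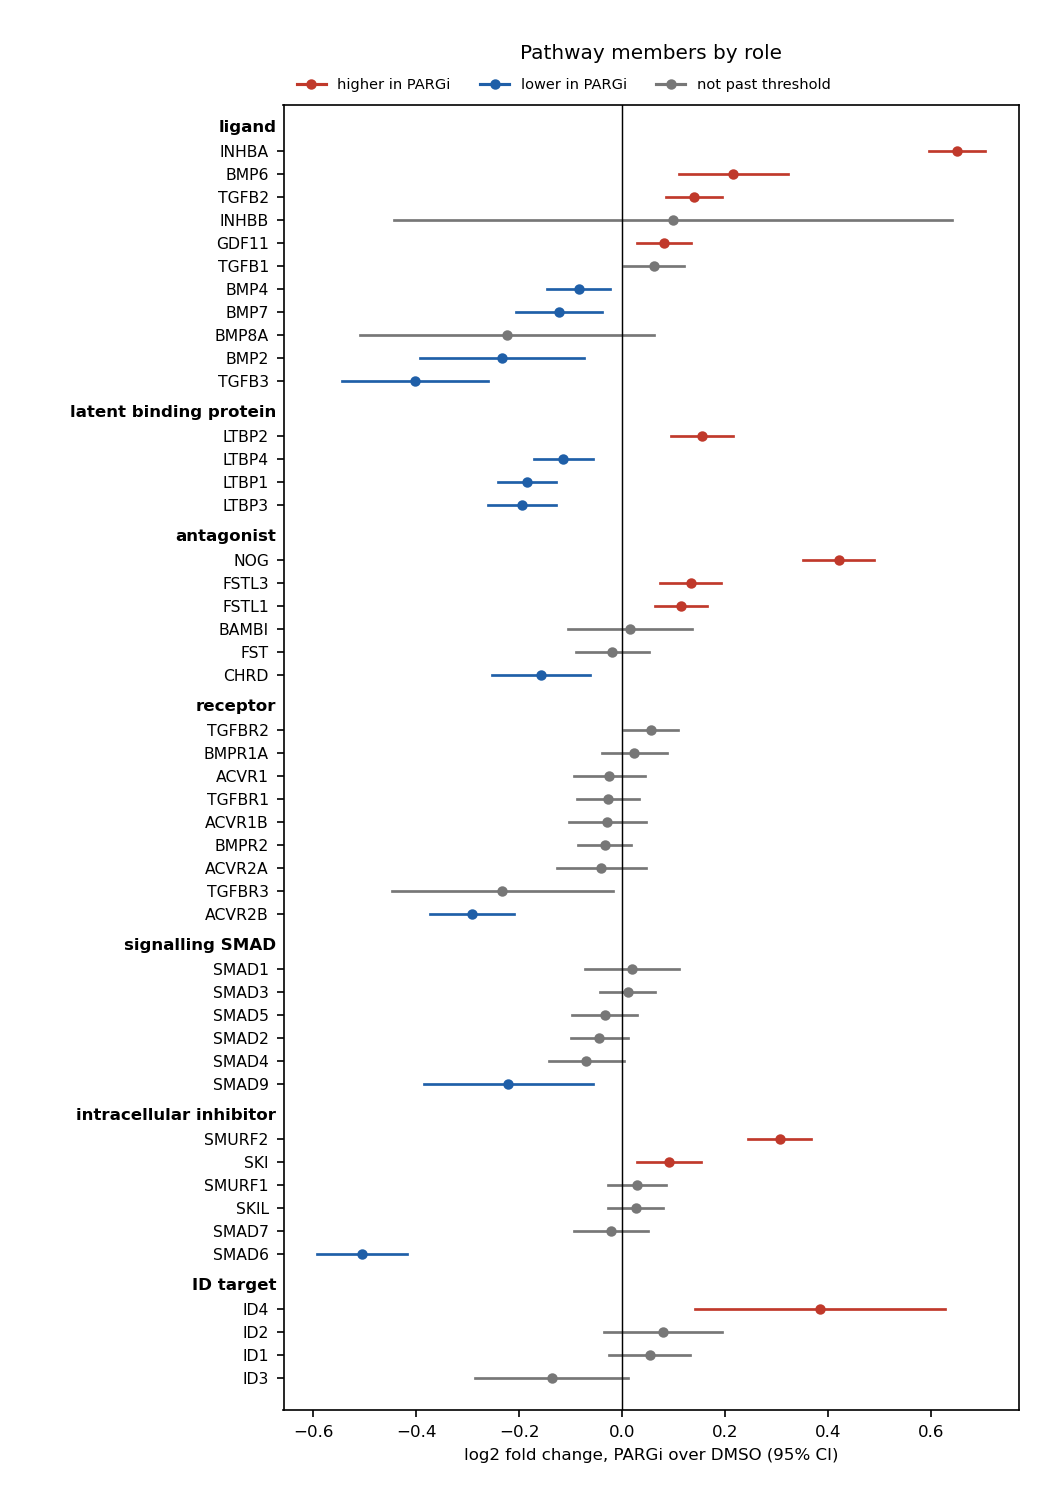
Log2 fold change of PARGi over DMSO (horizontal axis) for the 46 tested members, grouped by role; points are edgeR estimates, lines are 95% confidence intervals, and colour gives the call at an adjusted p of 0.05. INHBA at 0.65 and SMAD6 at -0.51 mark the ends, while 8 of 9 receptors did not pass.

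The strongest rise and the strongest fall among the tested members were those of INHBA and SMAD6, and TGFB3 was the ligand that fell most. The 250 bases before the outermost RefSeq start of each are shown because these members mark the ends of the range of change and of the ligands' falls. They are given on the gene's strand from RefSeq's GRCh38.p14 table, for INHBA chr7:41703091-41703340 (minus strand), for SMAD6 chr15:66701986-66702235 (plus strand) and for TGFB3 chr14:75983012-75983261 (minus strand). The RefSeq start of INHBA lies inside the gene as GENCODE 29 draws it, so its window is not upstream of the GENCODE gene, and 18 of its bases are in a GENCODE exon, as are 8 of those of SMAD6 and 0 of those of TGFB3. Capitals mark the palindromic SMAD-binding motif GTCTAGAC.
INHBA: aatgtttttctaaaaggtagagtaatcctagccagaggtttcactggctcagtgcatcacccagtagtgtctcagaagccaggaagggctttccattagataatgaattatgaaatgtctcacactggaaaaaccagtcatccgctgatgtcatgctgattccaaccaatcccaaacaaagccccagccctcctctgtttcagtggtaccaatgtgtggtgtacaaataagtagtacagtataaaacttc
SMAD6: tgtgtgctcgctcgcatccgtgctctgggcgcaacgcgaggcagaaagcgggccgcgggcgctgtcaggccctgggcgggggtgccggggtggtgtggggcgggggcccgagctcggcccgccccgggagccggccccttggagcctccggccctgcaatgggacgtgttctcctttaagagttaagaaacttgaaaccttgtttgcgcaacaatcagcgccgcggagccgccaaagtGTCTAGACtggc
TGFB3: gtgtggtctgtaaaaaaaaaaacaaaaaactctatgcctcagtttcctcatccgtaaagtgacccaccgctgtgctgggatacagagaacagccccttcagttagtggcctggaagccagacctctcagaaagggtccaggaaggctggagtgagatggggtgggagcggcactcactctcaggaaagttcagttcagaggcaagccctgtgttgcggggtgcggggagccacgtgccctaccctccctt

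Of the 49 members 45 had such a window, and SMAD6 was the single one with GTCTAGAC, which begins 12 bases before its RefSeq start. The end of the motif lies in the 8 bases of that window that are in a GENCODE exon, so it spans the GENCODE start. The motif was present in 0.183% of the 27305 windows in the table. A shorter CAGA motif, CAGACA on either strand, was in 5 of the 45 member windows (ACVR1, BMPR2, GREM1, LTBP4 and TGFB2) and in 13.6% of all windows. The AP-1 motif TGAGTCA, on either strand, was in the SMAD1 window and in 4.15% of all windows, and the cyclic AMP element TGACGTCA was in those of LTBP1 and SKIL and in 1.75% of all. The GC-rich SMAD motif GGCGCC was in 15 of the 45 member windows and in 16% of all. This motif holds only G and C, and the GC content of member windows ran from 40.8% (TGFBR2) to 89.6% (INHBB). The motif shares were not adjusted for GC content, and their difference was not tested. None of these 5 motifs was in the INHBA or TGFB3 window, which says only that these letters are not in these bases.

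Among ligands of the TGF-beta and activin branch, INHBA changed most. INHBA encodes the activin A subunit and lies on chromosome 7 (minus strand, 41667168 to 41705834; GENCODE 29, GRCh38). Its normalised level was 68.7, 68.6 and 68.1 CPM in DMSO replicates 1 to 3 and 109, 106 and 107 CPM with PARGi replicates 1 to 3. Every PARGi library was thus far above the narrow DMSO range, and the rise was 56.8% (95% CI 51 to 62.9%; log2 fold change 0.65 with an SE of 0.026, edgeR adjusted p = 1.89e-14). Of the tested genes at 10 CPM or more, 0.365% had a larger absolute log2 fold change. INHBB, the activin B subunit, was at 0.436 ± 0.0853 CPM in DMSO and 0.459 ± 0.0976 CPM with PARGi (SD, n = 3 each) and did not pass.

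Of the 3 TGF-beta genes, TGFB2 rose, TGFB3 fell and TGFB1 did not pass. TGFB1 had the highest level per exonic kilobase of all tested ligands, 91.8 ± 3.64 CPM per kilobase in DMSO. Its log2 fold change of 0.061 did not pass (edgeR adjusted p = 0.119), although it did with a GC and length offset (0.075, adjusted p = 0.015) and without DMSO replicate 3 (0.092, adjusted p = 0.00739). TGFB2 rose from 118, 115 and 114 CPM to 130, 126 and 126 CPM, with no overlap (log2 fold change 0.14 with an SE of 0.026, edgeR adjusted p = 0.000323). TGFB3 fell from 10.3 CPM in each of the DMSO libraries to 8.29, 6.84 and 8.31 CPM with PARGi. PARGi replicate 2 was the lowest of these, and the log2 fold change was -0.40 (SE 0.068, edgeR adjusted p = 0.000102) with it and -0.31 without it (adjusted p = 0.00166). TGFB3 lies on chromosome 14 (minus strand, 75958099 to 75982991). GDF11, a ligand that signals through activin receptors, was at 139, 139 and 142 CPM in DMSO and 147, 151 and 146 CPM with PARGi (log2 fold change 0.081, edgeR adjusted p = 0.0216). That call was lost without DMSO replicate 1 (0.074), PARGi replicate 1 (0.084) or PARGi replicate 2 (0.069), and with upper-quartile scaling (0.056).

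BMP ligands signal to SMAD1, SMAD5 and SMAD9, and none that was tested changed as much as INHBA or TGFB3. The median absolute log2 fold change was 0.215 over the 5 tested BMP ligands and 0.12 over the 6 of the TGF-beta and activin branch. BMP4 had the highest level per kilobase among the BMP ligands, 34.3 ± 1.42 CPM per kilobase in DMSO. BMP6 rose from 15.5, 16.3 and 15.3 CPM to 19.5, 17 and 18.3 CPM, with the groups apart (log2 fold change 0.22 with an SE of 0.051, edgeR adjusted p = 0.00302), and this call was kept in all alternatives without a minimum size. BMP4 was at 111, 103 and 103 CPM in DMSO and 102, 98.1 and 98.6 CPM with PARGi (log2 fold change -0.085, edgeR adjusted p = 0.0405). BMP7 was at 33.1, 34.9 and 37.3 CPM and then 33.3, 31.8 and 31.9 CPM, so the groups overlapped (-0.12, adjusted p = 0.0295), and BMP2 at 7.94, 6.7 and 7.79 CPM and then 7.02, 6.11 and 6.07 CPM overlapped too (-0.23, adjusted p = 0.0287). These 3 lower calls were weak. DESeq2 gave none of them (adjusted p = 0.0645 for BMP4, 0.0759 for BMP7 and 0.089 for BMP2). BMP4 lost its call without DMSO replicate 1 (-0.053), PARGi replicate 2 (-0.074) or PARGi replicate 3 (-0.078), and with no filter on low counts (adjusted p = 0.0506) or a GC and length offset (-0.053). BMP7 lost it without DMSO replicate 3 (-0.077), PARGi replicate 2 (-0.11) or PARGi replicate 3 (-0.11), and BMP2 without DMSO replicate 1 (-0.19), DMSO replicate 3 (-0.20), PARGi replicate 2 (-0.20) or PARGi replicate 3 (-0.19). BMP8A, at 2.03 ± 0.366 CPM in DMSO and 1.74 ± 0.112 CPM with PARGi, did not pass, and it shares sequence with the near-identical BMP8B, so its value is uncertain.

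All 4 latent TGF-beta binding proteins passed, LTBP1, LTBP3 and LTBP4 as lower and LTBP2 as higher. Over all tested genes the share was 24.3%, and it was 35.7% at 10 CPM or more. LTBP1, LTBP3 and LTBP4 bind the latent TGF-beta complex and anchor it to matrix fibres, whereas LTBP2 is the family member that does not bind it. LTBP1 was at 209, 216 and 210 CPM in DMSO and 193, 186 and 180 CPM with PARGi (log2 fold change -0.19 with an SE of 0.027, edgeR adjusted p = 1.96e-05). LTBP3 was at 171, 177 and 190 CPM in DMSO and 156, 162 and 152 CPM with PARGi (-0.19, SE 0.032, adjusted p = 7.41e-05). LTBP4, the most abundant per kilobase at 40.6 ± 1.75 CPM per kilobase in DMSO, was at 317, 325 and 345 CPM and then 307, 303 and 302 CPM (-0.11, SE 0.028, adjusted p = 0.0035). LTBP2 went the other way, from 186, 192 and 205 CPM to 218, 215 and 217 CPM (0.15, SE 0.029, adjusted p = 0.000339). No library of one group entered the range of the other in any of the 4, and the calls held in every alternative without a minimum size.

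**Figure D2:**
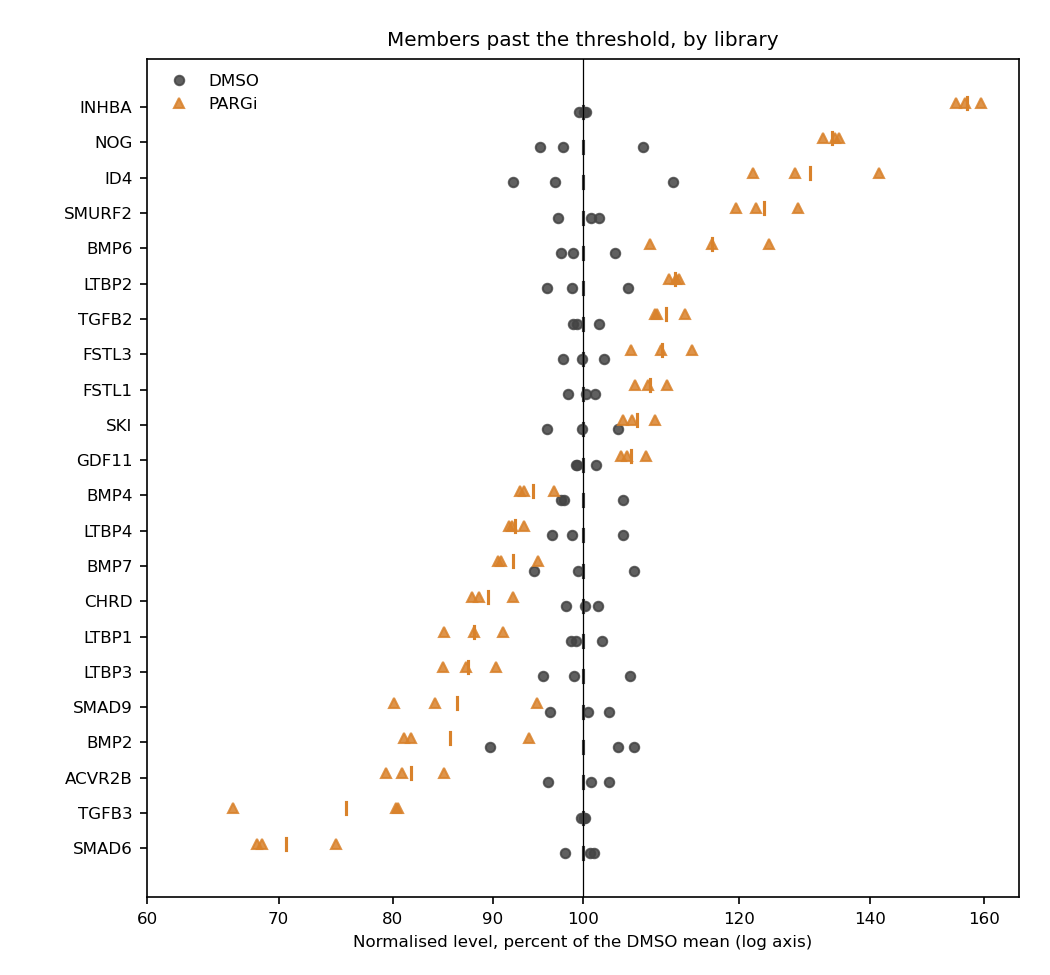
Normalised level of the 22 members that passed, in percent of the gene's DMSO mean on a log axis; circles are the 3 DMSO libraries, triangles the 3 PARGi libraries and short bars the group means. INHBA and NOG lie well to the right and SMAD6 and TGFB3 well to the left, while the groups of BMP2 and BMP7 overlap.

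Antagonists held a second large rise, that of NOG. NOG encodes noggin, which binds and blocks BMPs, and is a gene on chromosome 17 (plus strand, 56593699 to 56595590). It rose from 98.3, 95.7 and 108 CPM in DMSO to 136, 133 and 135 CPM with PARGi. The PARGi libraries were close together and all above the DMSO range (33.8% higher, 95% CI 27.6 to 40.4%; log2 fold change 0.42 with an SE of 0.033, edgeR adjusted p = 1.46e-09). CHRD encodes chordin, another BMP-binding antagonist, and was lower at 14.6, 14.7 and 15.3 CPM against 16.9, 16.3 and 16.7 CPM in DMSO (-0.16, edgeR adjusted p = 0.0133). The CHRD call was lost with DESeq2 (adjusted p = 0.0518), without PARGi replicate 1 (-0.15, adjusted p = 0.0533) and without PARGi replicate 2 (-0.15, adjusted p = 0.0565).

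FSTL1, a secreted follistatin-like protein reported to bind BMP4, was the most abundant antagonist per kilobase, with 64.9 ± 1.05 CPM per kilobase in DMSO. It was at 574, 568 and 556 CPM in DMSO and 602, 611 and 625 CPM with PARGi (log2 fold change 0.11 with an SE of 0.024, edgeR adjusted p = 0.00105). FSTL3, which binds activin, rose from 129, 126 and 132 CPM to 142, 137 and 147 CPM (0.13, SE 0.029, edgeR adjusted p = 0.00137). Both groups were apart in each of these genes. FST, the follistatin gene, whose protein is the main activin trap, was at 44.9 ± 1.78 CPM in DMSO and 44.2 ± 0.985 CPM with PARGi (SD, n = 3 each) and did not pass (edgeR adjusted p = 0.742). Its 95% interval leaves room for a change of -6.07% to 3.65%. BAMBI, a pseudoreceptor without a kinase, did not pass either (10.9 ± 0.615 and 11 ± 0.478 CPM, edgeR adjusted p = 0.892).

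Levels per kilobase of a ligand and its antagonist were set side by side within each library, for pairs chosen after their values were seen and with no test. INHBA stood at 0.524, 0.563 and 0.552 of the level of FST in DMSO and at 0.888, 0.836 and 0.881 in PARGi. BMP4 stood at 0.691, 0.66 and 0.588 of the level of NOG in DMSO and at 0.461, 0.452 and 0.447 in PARGi. INHBA thus moved up against FST and BMP4 down against NOG in each PARGi library. As FST did not pass and BMP4 changed by -0.085 on the log2 scale, these ratios mainly restate the rises of INHBA and NOG. CHRD, another BMP antagonist, fell more than BMP4 (-0.16), so the direction for BMP4 depends on the antagonist chosen. The ratios are of transcripts and carry no measure of secreted protein.

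Among the receptors 1 of 9 passed the threshold, beside 24.3% of all tested genes. ACVR2B, an activin receptor that also serves BMPs, was at 31.2, 33.4 and 32.8 CPM in DMSO and 26.3, 27.6 and 25.8 CPM with PARGi. The groups were clearly apart (18.3% lower, 95% CI -22.8 to -13.5% for the change; log2 fold change -0.29 with an SE of 0.039, edgeR adjusted p = 5.63e-06), and the call held in every alternative without a minimum size. Its gene lies on chromosome 3 (plus strand, 38453851 to 38493142). TGFBR2, the ligand-binding TGF-beta receptor, was the most abundant per kilobase (30.7 ± 0.512 CPM per kilobase in DMSO), with 144, 142 and 147 CPM in DMSO and 147, 150 and 152 CPM with PARGi. The groups of TGFBR2 did not overlap, but the log2 fold change of 0.056 did not pass (edgeR adjusted p = 0.123), except with a GC and length offset (0.075, adjusted p = 0.0201).

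Of the other receptors, TGFBR1, ACVR1B, ACVR2A, ACVR1, BMPR1A and BMPR2 had log2 fold changes between -0.041 (ACVR2A) and 0.023 (BMPR1A), with adjusted p-values from 0.359 to 0.65 in edgeR. Their 95% intervals were narrow: for TGFBR1 the change lay between -5.91% and 2.27%, and for BMPR2 between -5.82% and 1.23%. TGFBR3, the co-receptor betaglycan, was at 3.75, 4.74 and 5.42 CPM in DMSO and 3.95, 3.94 and 4 CPM with PARGi. Its DMSO values were spread around the PARGi ones, and it did not pass (log2 fold change -0.23 with an SE of 0.10, edgeR adjusted p = 0.109).

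Signalling SMADs carry the signal from receptor to DNA, and 5 of the 6 did not pass. Over all tested genes 24.3% passed. SMAD3, the most abundant per kilobase at 11.5 ± 0.182 CPM per kilobase in DMSO, was at 106, 106 and 103 CPM in DMSO and 105, 107 and 105 CPM with PARGi (log2 fold change 0.010, edgeR adjusted p = 0.822; change between -2.97% and 4.56%). SMAD2, SMAD1, SMAD5 and SMAD4 had log2 fold changes of -0.044, 0.018, -0.034 and -0.070. SMAD9, a BMP-branch member and the least abundant of the 6, was at 5.47, 5.72 and 5.86 CPM in DMSO and 5.39, 4.77 and 4.55 CPM with PARGi (-0.22, SE 0.080, edgeR adjusted p = 0.0458). PARGi replicate 1 was just under the DMSO range. This borderline call was lost with DESeq2 (adjusted p = 0.146), with no filter on low counts (0.0635) and with a replicate block (0.0653). It was also lost without DMSO replicate 1 (log2 fold change -0.25), DMSO replicate 2 (-0.22), DMSO replicate 3 (-0.20), PARGi replicate 2 (-0.20) or PARGi replicate 3 (-0.17).

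Inhibitors inside the cell held the largest fall of all members. SMAD6, an inhibitory SMAD that acts chiefly on BMP receptors and is itself induced by BMP signalling, lies on chromosome 15 (plus strand, 66702228 to 66782848). It was at 28.4, 28.3 and 27.5 CPM in DMSO and 21, 19.3 and 19.2 CPM with PARGi. No PARGi library came near the DMSO range (29.5% lower, 95% CI -33.7 to -25.1% for the change; log2 fold change -0.51 with an SE of 0.042, edgeR adjusted p = 3.81e-09). Its relative SMAD7, which acts on both branches, was at 39.4, 37.5 and 38.5 CPM and then 38.9, 37 and 37.8 CPM, so the groups overlapped (-0.022, edgeR adjusted p = 0.704; change between -6.27% and 3.49%). Per kilobase, SMAD7 was at 2.36, 2.25 and 2.38 times SMAD6 in DMSO and at 3.15, 3.26 and 3.36 times in PARGi.

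SMURF2, a ubiquitin ligase that SMAD7 brings to the TGF-beta receptor, rose from 101, 104 and 105 CPM in DMSO to 124, 133 and 127 CPM with PARGi. All PARGi libraries lay above the DMSO range (log2 fold change 0.31 with an SE of 0.029, edgeR adjusted p = 3.57e-08). It lies on chromosome 17 (minus strand, 64542295 to 64662068). SMURF1, the related ligase first known for acting on BMP SMADs, was at 69.8 ± 0.334 CPM in DMSO and 71.2 ± 1.17 CPM with PARGi (0.028, edgeR adjusted p = 0.513). SKI and SKIL are co-repressors that bind SMADs on DNA. SKI was at 77.6, 80.9 and 84.3 CPM in DMSO and 84.8, 88 and 85.8 CPM with PARGi, barely apart (0.091, edgeR adjusted p = 0.0315), and its call was lost with upper-quartile scaling (0.066) and without DMSO replicate 1 (0.059), PARGi replicate 1 (0.10), PARGi replicate 2 (0.076) or PARGi replicate 3 (0.095). SKIL, the most abundant of the inhibitors at 18.4 ± 0.394 CPM per kilobase in DMSO, was at 146, 145 and 140 CPM in DMSO and 145, 148 and 146 CPM with PARGi (0.026, adjusted p = 0.526).

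ID genes encode proteins that block DNA binding by other helix-loop-helix factors, and ID1 to ID3 are classic direct targets of BMP SMADs. ID1, the most abundant at 24.6 ± 1.1 CPM per kilobase in DMSO, was at 29.7, 31.9 and 29.4 CPM in DMSO and 31.9, 31.6 and 30.9 CPM with PARGi. Its groups overlapped and it did not pass (log2 fold change 0.053, edgeR adjusted p = 0.355; change between -1.81% and 9.57%), except with a GC and length offset (0.12, adjusted p = 0.0201). ID2 (0.079, adjusted p = 0.337) and ID3 (-0.14, adjusted p = 0.18) did not pass. ID4, the least abundant, was at 2.25, 1.96 and 1.87 CPM in DMSO and 2.87, 2.48 and 2.6 CPM with PARGi, with the groups apart (0.38, SE 0.12, edgeR adjusted p = 0.019). The ID4 call was lost with DESeq2 (adjusted p = 0.0623), without DMSO replicate 3 (0.32) and without PARGi replicate 1 (0.33).

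**Figure D3:**
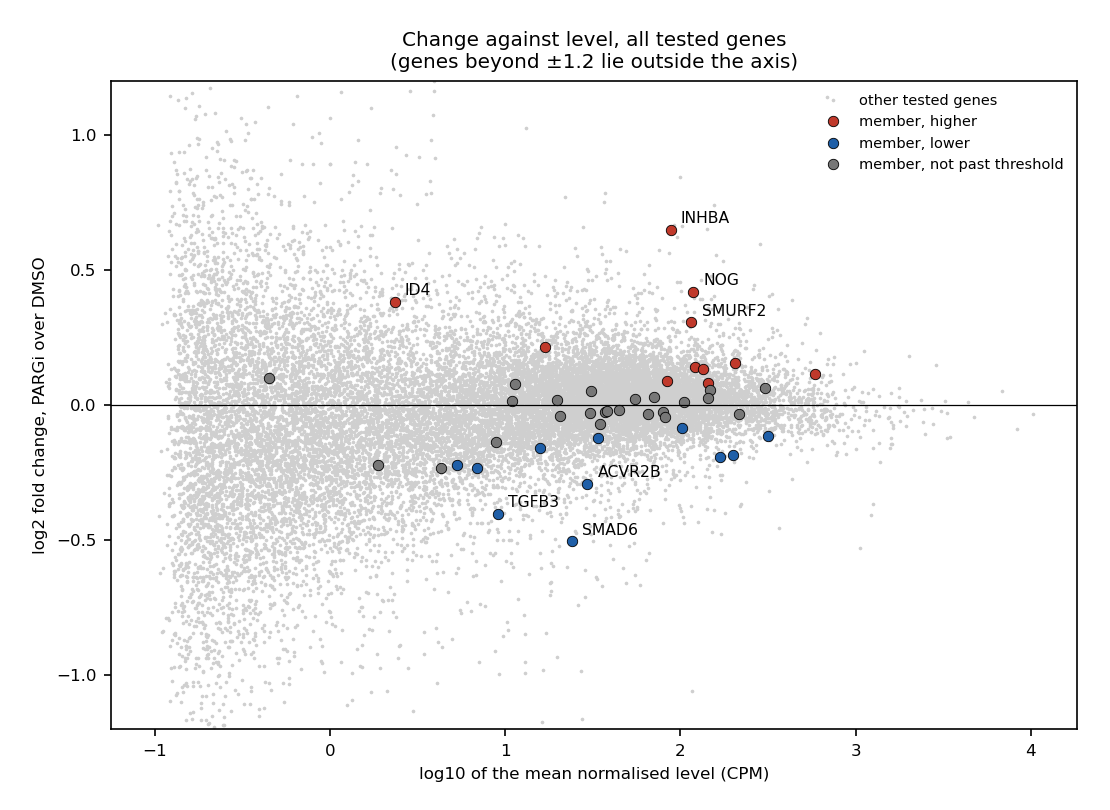
Log2 fold change of PARGi over DMSO against the log10 mean level in CPM for all tested genes (grey) and the 46 tested members (coloured by call). Most members lie in the dense band of abundant genes with small changes; INHBA, NOG and SMURF2 stand above it and SMAD6, ACVR2B and TGFB3 below.

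Another 100 pathway genes, chosen by role as ligands, release factors, antagonists, co-receptors, signal regulators or targets, gave 33 calls among 78 tested, 20 higher and 13 lower, beside 24.3% of all tested genes and 35.7% of those at 10 CPM or more. The list was drawn up with earlier results of these data known, so it is not an independent set to hold against those shares. Of 18 genes listed as SMAD2/3 targets, 11 passed, 8 higher and 3 lower, at a median log2 fold change of 0.082. SNAI2, a transcriptional repressor of epithelial genes, rose from 27.5, 27.9 and 28.7 CPM to 41.6, 43 and 41.5 CPM (log2 fold change 0.59, edgeR adjusted p = 1.05e-11), and BHLHE40 from 280, 292 and 288 CPM to 384, 373 and 386 CPM (0.41, adjusted p = 1.55e-11). In both genes every PARGi library was above every DMSO library. These genes answer to several other pathways besides TGF-beta. The list did not move as 1 block. Its largest rise on the log2 scale was that of ACTA2 (1.62 ± 0.156 to 3.13 ± 0.316 CPM, 0.95, edgeR adjusted p = 2.09e-06), and CCN2 rose too (315 ± 4.75 to 403 ± 6.6 CPM, 0.36, adjusted p = 1.13e-10). COL1A2, a collagen chain, fell from 13 ± 1.38 to 7.41 ± 0.685 CPM (-0.80, adjusted p = 1.6e-08), and COL1A1, TGFBI and FN1 did not pass. PMEPA1, a SMAD-induced inhibitor counted among the regulators, was at 689 ± 17.1 and 668 ± 7.73 CPM and did not pass (-0.045, adjusted p = 0.191). ACTA2, CCN2, COL1A2, COL1A1, TGFBI, FN1 and PMEPA1 are named after their values were seen.

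Of 10 genes listed as BMP targets, 7 were tested and 4 passed, 2 in each direction, at a median of -0.11. Over all tested genes 24.3% passed. RUNX2, the transcription factor that commits cells to the osteoblast lineage, fell from 84.5, 82.2 and 83.2 CPM to 69.3, 68.3 and 69.4 CPM (log2 fold change -0.27 with an SE of 0.027, edgeR adjusted p = 4.96e-08). MSX1, a homeobox gene, rose from 10.6 ± 1.06 to 13.4 ± 0.728 CPM (0.33, adjusted p = 0.000431), and UNC5B was lower with overlapping groups (89.1 ± 5.36 and 82.7 ± 1.77 CPM, adjusted p = 0.0216).

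Receptors and antagonists outside the member list included larger falls. BMPR1B, a BMP receptor kinase, fell from 11.6, 11.8 and 10.5 CPM to 8.5, 7.52 and 8.03 CPM (log2 fold change -0.50 with an SE of 0.063, edgeR adjusted p = 2.28e-06). ENG, the co-receptor endoglin, rose from 17.8 ± 0.559 to 21.3 ± 0.783 CPM (0.26, adjusted p = 0.000102), and RGMA, a BMP co-receptor, fell from 30.2 ± 1.21 to 26.7 ± 0.644 CPM (-0.18, adjusted p = 0.00121). SOSTDC1, a secreted BMP antagonist, had 70, 69 and 64 counts in the DMSO libraries and 9, 9 and 10 in the PARGi libraries (-2.93, SE 0.27, adjusted p = 1.74e-08), at 1.02 ± 0.135 CPM in DMSO. TWSG1, a chordin partner, rose from 159 ± 2.78 to 176 ± 1.16 CPM (0.15, adjusted p = 0.000114), and NBL1 was higher with overlapping groups (39.6 ± 3.98 and 45.5 ± 1.94 CPM, adjusted p = 0.00388). The other antagonist list had 3 genes higher and 1 lower of 9 tested, and the co-receptor list 2 higher and 2 lower of 6, beside calls for 24.3% of all tested genes.

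Genes that process or release ligands showed 2 calls in each direction among 9 tested. ITGB8, an integrin subunit that frees latent TGF-beta, fell from 99.1 ± 3.48 to 83 ± 2.85 CPM (log2 fold change -0.25, edgeR adjusted p = 1.17e-06), LRRC32, a surface anchor of latent TGF-beta, rose from 10.2 ± 0.27 to 11.8 ± 0.434 CPM (0.21, adjusted p = 0.00568), and BMP1, a protease that cleaves chordin, rose from 78 ± 3.53 to 84.9 ± 3.33 CPM (0.12, adjusted p = 0.0098). Among 20 signal regulators 5 passed, which is 25% and near the 24.3% of all tested genes. TGIF1, a SMAD co-repressor, had the smallest p of them (103 ± 2.21 to 90.9 ± 0.332 CPM, -0.17, adjusted p = 2.72e-05). TOB1, which restrains BMP SMADs, fell from 26.3 ± 0.469 to 23.1 ± 0.893 CPM (-0.18, adjusted p = 0.00156), and NEDD4L, a ubiquitin ligase for SMAD2 and SMAD3, rose from 81.7 ± 2.29 to 88.8 ± 2.78 CPM (0.12, adjusted p = 0.00415). Of 19 other ligands 9 were tested and GDF15, a distant family member with its own receptor, was the single call (2.42 ± 0.367 to 5.47 ± 0.411 CPM, 1.16, adjusted p = 9.01e-09).

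Library totals ran from 60286931 to 80605145 counts. With upper-quartile scaling 40.5% of all calls were higher in place of 54.5%, with a GC and length offset 65.1%, and the members' calls then split into 9 higher and 11 lower, and 14 higher and 10 lower. The list of mesenchymal and bone-lineage markers had summed levels of 8401 to 8984 CPM in DMSO and 8518 to 8563 CPM with PARGi. TWIST1 was under 1 CPM in every library. These sums are mostly COL1A1 and VIM, so they say little about the bone lineage. Among the genes listed as BMP targets, SP7 (0.0097 CPM in DMSO) and DLX5 (0.054 CPM) were too low to test, and ALPL was at 4.68 CPM. Of the 5 tested genes of the marker list 2 passed, both lower, RUNX2 as given above and SPARC (1677 ± 17.1 to 1583 ± 10.9 CPM, log2 fold change -0.083, edgeR adjusted p = 0.00653). VIM was lower in every PARGi library than in any DMSO library but did not pass (2476 ± 57.7 and 2372 ± 22.1 CPM, edgeR adjusted p = 0.0515). Of 6 blood-cell markers 5 were under 1 CPM in every library, and 5 endothelial markers summed to at most 8.92 CPM in any library. The 6 epithelial markers summed to 383 to 391 CPM in DMSO and 464 to 472 CPM with PARGi, and they were mixed. KRT8 (159 ± 0.981 to 192 ± 2.54 CPM), KRT18 (224 ± 4.45 to 272 ± 2.39 CPM) and CDH1 (0.718 ± 0.0247 to 1.14 ± 0.208 CPM) passed as higher, with log2 fold changes of 0.27, 0.28 and 0.67. EPCAM was at 3.53 ± 0.236 CPM in DMSO and 3.02 ± 0.0457 CPM with PARGi, with every PARGi library below DMSO, and did not pass (-0.22, edgeR adjusted p = 0.0912), and ESRP1 and GRHL2 were under 1 CPM in every library. The part of these marker differences in the results above was not tested. In bulk RNA, fewer cells that express a gene and less RNA per cell cannot be told apart.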

How the data were processed

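RNA was measured in 6 libraries of U2OS cells, 3 per group, grouped by sample title. Per the labels' protocols, libraries were made with a stranded total-RNA kit. Per the submitters' processing notes, cutadapt 1.18, STAR 2.7.3a, SAMtools 1.9, DESeq2 3.12 and deepTools were used with hg38; their roles and the annotation release are not given in the sources used here. Each deposited table gives whole-number counts of reads by gene, not normalised. Of 430 genes with at least 90% of their exons inside exons of an abundant opposite-strand gene, 386 had counts, at a median of 0.749% of the partner's counts per kilobase, so the counts were taken as strand-specific.

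Genes were filtered with filterByExpr, scaled with TMM and tested with edgeR 4.0.16 (R 4.3.3) by the two-sided quasi-likelihood test on treatment alone, with Benjamini-Hochberg adjustment over all 20409 genes and a threshold of 0.05. Levels are CPM after TMM scaling. Exonic lengths and positions come from GENCODE 29, with all isoforms merged. Alternatives were DESeq2 1.42.0, limma-voom (limma 3.58.1), other scalings, filters and dispersions, a replicate block, a GC and length offset, a 1.2-fold minimum and each library left out. The code was tested on simulated counts of this comparison: of 99 genes changed by 0.6 on the log2 scale, 69.7% were called correctly, of 97 changed by 0.3, 54.6%. Of 19886 unchanged genes 0.045% were called. Far fewer genes were changed there than the 4951 called in the data, which alters the adjusted p-values. These shares therefore check the code and do not measure how many real changes were found. No libraries were duplicates (chi-square per degree of freedom at least 2.19). The members and gene lists were chosen with earlier results of these data known. Named in full are all called members, the most abundant tested member per kilobase of each role, and up to 3 called genes with the smallest p per other list. One gene that this rule names is not reported here. Figures used matplotlib 3.10.9.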

Additional observations from a re-analysis of the deposited data

How the results depend on the processing

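Directions of the 22 called members held in every alternative run, and 14 of the 22 kept their call in all 16 alternatives without a minimum size. INHBA ranged from 0.62 to 0.66 on the log2 scale, NOG from 0.39 to 0.47 and SMAD6 from -0.55 to -0.48. A test against a 1.2-fold change kept 3 members (INHBA, NOG and SMAD6), with 1 in the TGF-beta and activin branch, 2 in the BMP branch and 0 shared, 9 of the other pathway genes and 465 genes in all. With one library left out, the member count ran from 15 to 21, the TGF-beta and activin count from 8 to 10, the BMP count from 5 to 9, and the shared count from 2 to 3. DESeq2 called 16 members and 4 of the BMP branch. The counts from the alternative runs are given without the share of all genes called in the same run. A loss of member calls is therefore not separated from a loss of calls in general. The median log2 fold change of the members moved from -0.021 to 0.0068 with a GC and length offset, to 0.0070 with the replicate block and that offset, and to -0.045 with upper-quartile scaling, and ran from -0.030 to 0.0020 with one library left out, so its sign is not settled. The cause of these moves was not tested. The median of all tested genes moved by -0.0245 with upper-quartile scaling and by 0.0229 with a GC and length offset. Both shifts are larger in size than the members' median of -0.021.

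Both groups use replicate numbers 1 to 3, but same-numbered libraries did not deviate together (correlations of -0.0059, 0.016 and -0.0078). With the replicate block 21 members passed, and SMAD9 was the call lost (log2 fold change -0.22, edgeR adjusted p = 0.0653). Depth limits the members under about 1 CPM: for INHBB the interval runs from -26.4% to 55.9%. No molecular identifiers are mentioned for these libraries.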

Other observations

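The 3 members with too few counts for a test were BMP8B, GDF5 and GREM1. In replicate order, BMP8B had 1, 2 and 2 counts with DMSO and 2, 5 and 4 with PARGi, and it is nearly identical in sequence to BMP8A. GDF5, a ligand of joint and cartilage development, had 4, 3 and 4 counts in DMSO and 8, 7 and 7 in PARGi. GREM1, which encodes the BMP antagonist gremlin, had 2, 6 and 8 counts in DMSO and 0, 3 and 3 in PARGi.

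LEFTY2, an inhibitor of Nodal signalling listed among the other ligands, was also below the filter and is named after its values were seen. It had 9, 29 and 30 counts in DMSO and 3, 6 and 9 in PARGi, or 0.333 ± 0.168 and 0.081 ± 0.0309 CPM (SD, n = 3 each), and DMSO replicate 1 was far below the other two.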
